A study of Mus musculus with 3 samples.

Results

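Akap12 is the protein-coding gene with the most Tra2β crosslinks in the adult mouse testis, and it was chosen by that total, as 1 gene of 78289 annotated genes and of 21770 protein-coding genes. Its level, its rank and its low level in the second library are therefore given below as descriptions with no test, and tests are kept for where along the gene the crosslinks lay. Tra2β contacts with RNA were mapped by iCLIP in 3 libraries of total testis from adult wild type mice, with a polyclonal anti-Tra2b antibody. The paper's methods state that testes were minced to release germ cells before irradiation. All 3 libraries were biological replicates of 1 group, the tissue was a mixture of cell types, and no control library, such as an input or a knockout, entered the comparisons. In iCLIP, ultraviolet light joins a protein to the RNA that it touches, and each unique cDNA marks 1 crosslink at 1 nucleotide.

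Akap12 encodes a large A-kinase anchoring protein, also known as gravin or SSeCKS, a scaffold that holds protein kinase A, protein kinase C and other signalling proteins near the plasma membrane and the cytoskeleton. Several promoters give transcripts with different first exons, most of which are joined to 1 very long exon that encodes nearly the whole protein. Tra2β is an SR-like splicing activator that binds purine-rich RNA with a GAA core, often inside the exons that it activates.

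The gene lies on the plus strand at chr10:4216118-4309470 in GRCm39 (ENSMUSG00000038587.12), and GENCODE vM39 gives it 6 protein-coding transcripts. In the canonical transcript, Akap12-205, a first exon of 165 nt is followed by the long coding exon of 4798 nt at chr10:4303142-4307939 and by a last exon of 993 nt at chr10:4308478-4309470, which is 3′ UTR. Coding sequence takes up 4787 nt of the long exon. Akap12-202 instead begins with an exon of 140 nt and has its start codon at nt 51 of the long exon. Akap12-206, with 2 exons and 1158 nt, joins the canonical first exon to the last exon and lacks the long exon. Its coding sequence of 48 nt ends in the last exon, at chr10:4308500.

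The sequences that carried the crosslinks are shown first, since the long exon is a run of purine-rich stretches in which single nucleotides held few cDNAs. The exon was 61.1% purine and held 42 copies of GAAGA, the letters of which are in capitals in the next 4 stretches. Each stretch gives 20 nt before the motif, the motif and the 4 nt that follow, in GRCm39 on the plus strand. The first 2 were among the sites with the highest mean share of the exon's crosslinks in the nt before the motif, and the last 2 had the lowest.
GAAGA at nt 708, chr10:4303829-4303857: aggctgaaaaagtagacgagGAAGAaggg
GAAGA at nt 18, chr10:4303139-4303167: tagttggacagagagagtcaGAAGAtgtg
GAAGA at nt 1277, chr10:4304398-4304426: ggcttaaagaagctctccggGAAGAagca
GAAGA at nt 3267, chr10:4306388-4306416: tcaagcagtcacaggtcactGAAGAggag

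The 20 nt before the motif at nt 708 held 19, 9 and 31 crosslinks in replicates 1, 2 and 3. At nt 18, where the first 3 letters of the stretch are the end of the intron, the 17 exonic nt before the motif held 27, 5 and 20 crosslinks. The lowest site, at nt 3267, held 1, 0 and 3, and the site at nt 1277 held 3, 0 and 7, so the same 5 letters stood beside very different numbers of crosslinks. Of the 42 sites, 11 had more than the even share of 0.418% of the exon's crosslinks in all 3 libraries, and their windows can overlap. When the exon was cut into 48 wider bins, with or without the motif, 10 lay above their even share in all 3. No share was taken for windows of 20 nt away from the motif, so the count is not a result about GAAGA. The 42 sites were ranked after their values were known.

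Akap12 held 1833 crosslinks in replicate 1, 332 in replicate 2 and 3802 in replicate 3. As CPM, which here scales a gene to all crosslinks assigned to genes in the library, this was 6173, 723 and 8870, with a mean of 5255 ± 4151 (SD, n = 3). Replicate 2 stood apart, below both other libraries. The gene ranked first among coding genes in replicates 1 and 3 and 45th in replicate 2, and by exonic crosslinks alone it ranked 1, 4 and 1. Without an input library, the amount of Akap12 RNA and its contact with Tra2β cannot be told apart, nor can fewer cells of a type and less RNA per cell.

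Just outside the rule lay Ctnna3, which encodes a catenin of cell junctions, with 3085 CPM on average, and Spag16, an axonemal protein gene, with 2588. Both differed from Akap12 in where their crosslinks lay, since 2.60% and 3.53% of them were exonic, against 99.0% in Akap12. These levels are per gene and not per length. Per kb, the coding part of the Akap12 long exon had 1059, 134 and 1502 CPM in replicates 1, 2 and 3, a mean of 899. That was the highest mean among 57 long coding exons (2000 nt or more, with at least 20 crosslinks in each library).

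The crosslinks of Akap12 were nearly all exonic, with 1816, 313 and 3779 in exons and 17, 19 and 23 in 86363 nt of intron. The intronic counts were thus close to each other in the 3 libraries, while the exonic counts differed more than 10-fold between replicates 2 and 3. These counts are not scaled, and the libraries held 161915, 309968 and 184447 intronic crosslinks in replicates 1, 2 and 3. Equal counts are therefore not equal levels. The intronic share was 0.927%, 5.72% and 0.605%, and was highest in replicate 2. On the other strand the gene held 1, 4 and 1 crosslinks, none of them opposite the long or the last exon.

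The long coding exon held 1506, 295 and 3085 crosslinks in replicates 1, 2 and 3. This was 82.2% (95% Clopper-Pearson interval 80.3 to 83.9), 88.9% (85.0 to 92.0) and 81.1% (79.9 to 82.4) of those of the gene. The last exon held 276, 13 and 616. The upstream exons differed from each other. The first exon of Akap12-202, at chr10:4297768-4297907, held 26, 2 and 42 crosslinks, and that of Akap12-203, at chr10:4296808-4296966, held 8, 1 and 32. The first exon of the canonical transcript, at chr10:4284545-4284709, held 0 crosslinks in each library, which allows up to 0.165%, 0.958% and 0.0794% of the exonic crosslinks (3 counts per library). The first exon of Akap12-204 also held 0, and the pair of upstream exons of Akap12-201 together held 0, 2 and 4.

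**Figure D1:**
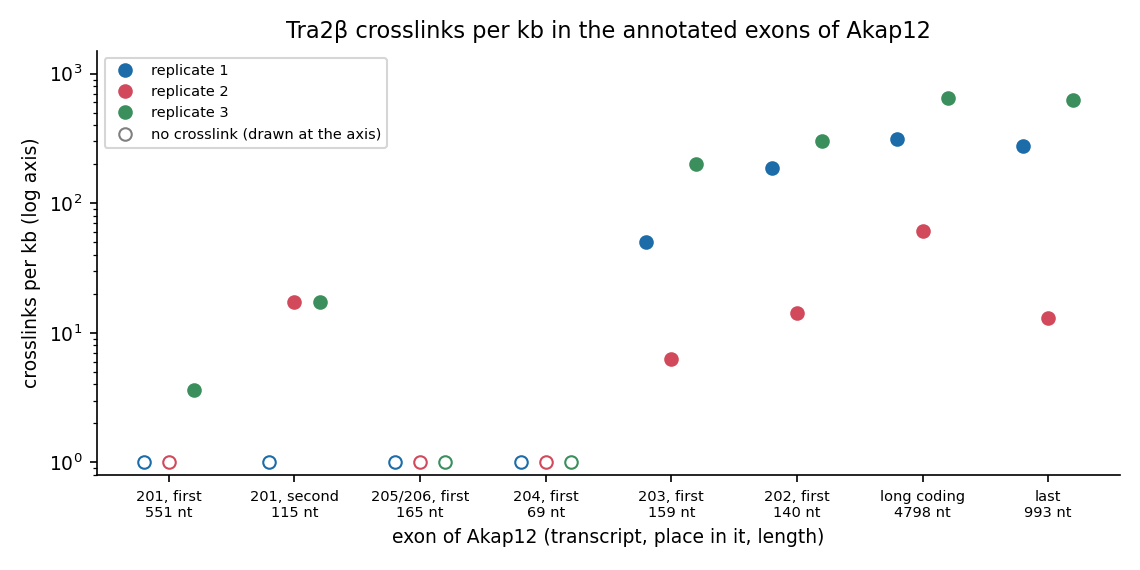
Crosslinks per kb (log axis) in each annotated exon of Akap12, in order along the gene, with 1 point per library and open points for exons with no crosslink. The first exons of Akap12-203 and Akap12-202 sit between 6.29 and 300.0 crosslinks per kb, while the first exons of Akap12-205 and Akap12-204 had none in any library.

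The position of the crosslinks within the canonical transcript was tested next. With crosslinks spread evenly over the 3 exons, 1436, 248 and 2981 were expected in the long exon. The density of the long exon over that of the rest of the transcript, as a log2 ratio, was 0.40, 2.40 and 0.27 in replicates 1, 2 and 3, a mean of 1.02 ± 1.20 (SD, n = 3). It was called higher by the exact binomial test, with a largest Benjamini-Hochberg adjusted p of 0.00244, and 0.164% of the 58715 exons tested were called higher in all 3 libraries. The first exon was called lower (0 against 49.4, 8.53 and 103 expected, largest adjusted p 0.0191, exact binomial test), as were 0.305% of exons. Per nt, it had at least 17.3-fold, 3.38-fold and 35.4-fold fewer crosslinks than the long exon in replicates 1, 2 and 3, with the first exon set at 3 counts per library. With the exons of all transcripts merged, the first exon was no longer called (adjusted p up to 0.0520, exact binomial test). Whether this first exon is part of Akap12 RNA in these testes was not measured. Its use and its contact with Tra2β therefore cannot be told apart, and the call does not show a difference in binding.

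The call on the long exon rested on that empty first exon, and so has the same limit. Against the last exon alone, a reference chosen after the data were seen, the long exon held 84.5%, 95.8% and 83.4% of the crosslinks of both exons, where length alone gives 82.9%. The unadjusted p was 0.0652, 6.20e-12 and 0.430 (two-sided exact binomial test), so the long and the last exon were not told apart in replicates 1 and 3. Without replicate 2 the mean log2 ratio over the rest of the transcript was 0.33, and the exon was still called. The last exon was not called, with a mean log2 ratio of -0.75 ± 1.20 (SD, n = 3). Its values were -0.12, -2.13 and -0.002 in replicates 1, 2 and 3. Only replicate 2 passed, with an adjusted p of 1.32e-08 by the exact binomial test.

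The last exon was thus crosslinked in replicates 1 and 3 almost as densely as the long exon, at 278 and 620 crosslinks per kb against 314 and 643. In replicate 2 the values were 13.1 and 61.5. Its sequence differed, with 46.2% purine against 61.1%, 32.8% against 15.5% U, 19.1 against 41.9 GAA per kb, and 1 copy of GAAGA against 42. In replicates 1 and 3, 43.1% and 42.5% of its crosslinks lay at nt 249 to 496, and 6.88% and 7.14% in its last 248 nt, from nt 746 to 993. With only 13 crosslinks, replicate 2 cannot show such a shape.

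The share of 3′ UTR crosslinks among coding and 3′ UTR crosslinks of Akap12 was 15.3%, 3.86% and 16.4%. Over 684 genes with at least 20 such crosslinks in each library, the medians were 13.5%, 8.96% and 13.9%. The share was lowest in replicate 2 in 51.0% of these genes. Over all coding and 3′ UTR crosslinks of a library it was 24.3%, 22.5% and 21.0%, and so was lowest in replicate 3. Replicate 2 minus the mean of the other libraries was -12.0 percentage points in Akap12 and -2.51 in the median gene, and 141 genes had a larger fall.

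Single nucleotides with the most crosslinks are shown for 3 exons, with GAA in capitals where the window holds it. In each window of 29 nt the crosslinked nucleotide is the 15th.
Long exon, nt 2382, chr10:4305509-4305537: atgggaccagggcagtcaccagtgccGAA
Last exon, nt 370, chr10:4308833-4308861: attgtatattttttttctaaggtttaagc
First exon of Akap12-202, nt 119, chr10:4297872-4297900: gcagtagaggccGAAtttttgGAAgtGAA
The nucleotide in the long exon held 7, 0 and 11 crosslinks, that in the last exon 3, 0 and 13, and that in the first exon of Akap12-202 held 5, 1 and 4. The window in the last exon has a run of T and no GAA, and the window in the first exon of Akap12-202 has 3 GAA. The highest count on any nucleotide of the coding part was 7, 3 and 11.

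Ranked instead by the mean share over the libraries, the top 5 nucleotides of the long exon were nt 699, 716, 1286, 702 and 1485. The nucleotide at nt 699 held 5, 2 and 5 crosslinks, that at nt 716 held 3, 2 and 8, and that at nt 702 held 2, 2 and 7. These 3 lie within 18 nt of each other, at the motif at nt 708 shown above. The nucleotides at nt 1286, with 0, 3 and 2, and nt 1485, with 0, 3 and 0, rank high only through replicate 2, where 1 crosslink weighs most.

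Crosslinks were spread over much of the coding part of the long exon. They fell on 1077 nt in replicate 1, 273 in replicate 2 and 1733 in replicate 3, and 2303 of its 4787 nt, or 48.1%, were hit in at least 1 library. Of the nt hit in replicate 1, 73.0% held a single crosslink, against 92.7% in replicate 2 and 60.9% in replicate 3. Libraries shared nucleotides more often than the exon was covered. Of the nt hit in replicate 1, 56.5% were also hit in replicate 3, which covered 36.2% of the exon. Of the nt hit in replicate 2, 35.2% were also hit in replicate 1, which covered 22.5%, and 49.5% in replicate 3. Hits common to all 3 libraries numbered 59, which is 5.48%, 21.6% and 3.40% of the nt hit in replicates 1, 2 and 3.

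Along the exon, crosslinks were densest near the 5′ end in all 3 libraries. The first 20% of the coding part, 957 nt at chr10:4303142-4304098, held 513, 118 and 927 crosslinks. This was 34.1% (95% Clopper-Pearson interval 31.7 to 36.5), 40.0% (34.4 to 45.8) and 30.1% (28.5 to 31.7) of those of the exon, a mean of 34.7% ± 4.99 (SD, n = 3) where even spread gives 20%. The next stretch of the same length held 21.0% ± 0.554, and the remaining 3 held 15.1% ± 2.55, 14.6% ± 2.47 and 14.6% ± 1.29 (SD, n = 3). This division was chosen after the values were seen and has no test. The first and second stretches had 63.8% purine and 13 GAAGA each, and the later ones 58.0%, 61.5% and 58.3% purine and 8, 4 and 4 GAAGA.

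In bins of 100 nt, the top 5 by mean share were nt 1 to 100, 801 to 900, 601 to 700, 501 to 600 and 701 to 800. The first bin held 88, 13 and 131 crosslinks, or 5.84%, 4.41% and 4.25% of the exon, where an even spread would give 31.5, 6.16 and 64.4. The bin at nt 801 to 900 held 71, 15 and 100, and that at nt 601 to 700 held 62, 14 and 101. The bin at nt 501 to 600 held 57, 12 and 129, and that at nt 701 to 800 held 51, 13 and 123. In each of these 5 bins every library lay above its even share. That was so for 10 of the 48 bins, 8 of them among the first 10, while 22 bins lay below in all 3 libraries.

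**Figure D2:**
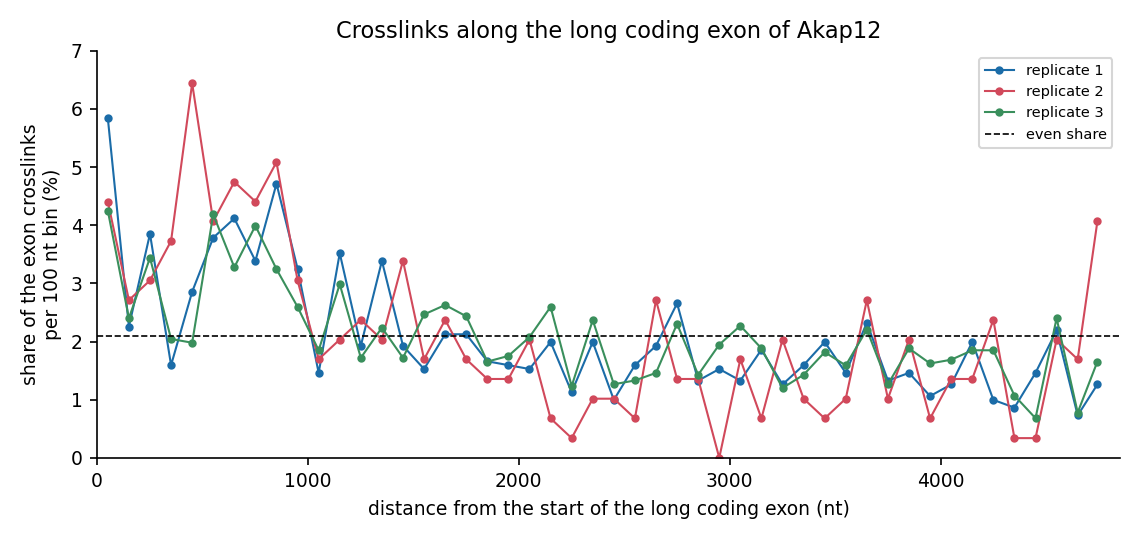
Share of the long exon's crosslinks (%) in each 100 nt bin of its coding part against the distance from the start of the exon (nt), with 1 line per library and the even share dashed. All 3 lines lie highest in the first 1000 nt, and the bin at nt 401 to 500 is highest in replicate 2, at 6.44%.

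No bin of Akap12 passed the test in all 3 libraries. Each bin was compared with the rest of its exon by the exact binomial test in each library, adjusted over 2848 bins of 57 long coding exons, of which 0.0351% were called higher and 0% lower. At an unadjusted p under 0.05 in every library, 5 bins of Akap12 were higher and 2 lower. Calls were fewest in replicate 2, which had 295 crosslinks in the exon. After adjustment 5 bins were higher in replicate 1, 6 in replicate 3 and 1 in replicate 2. For these counts by library and at unadjusted p, no share over all 2848 bins was taken. Akap12 had more crosslinks per bin than the other exons, so they are descriptions only. With replicates 1 and 3 alone, 5 bins were called higher and 1 lower (0.246% and 0.0351% of all bins). The higher ones were nt 1 to 100, 201 to 300, 501 to 600, 601 to 700 and 801 to 900, and the lower one was nt 4601 to 4700, with 11, 5 and 24 crosslinks.

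Bins of 200 nt, which hold more crosslinks each, gave 2 called higher in all 3 libraries, against 0.21% of all such bins. These were nt 401 to 600, with 100, 31 and 190 crosslinks (largest adjusted p 0.00249, exact binomial test), and nt 601 to 800, with 113, 27 and 224 (largest adjusted p 0.0359, exact binomial test).

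The first 20% of the other 56 long coding exons held a median of 19.8%, 19.7% and 19.4% of their crosslinks in replicates 1, 2 and 3. The exon of Prdm2, a zinc finger methyltransferase gene, had the highest mean, 39.0%, and Akap12 came second. A higher share than that of Akap12 was seen in 5 of the other exons in replicate 1, in 3 in replicate 2 and in 5 in replicate 3. These exons had far fewer crosslinks, and the comparison is a description.

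**Figure D3:**
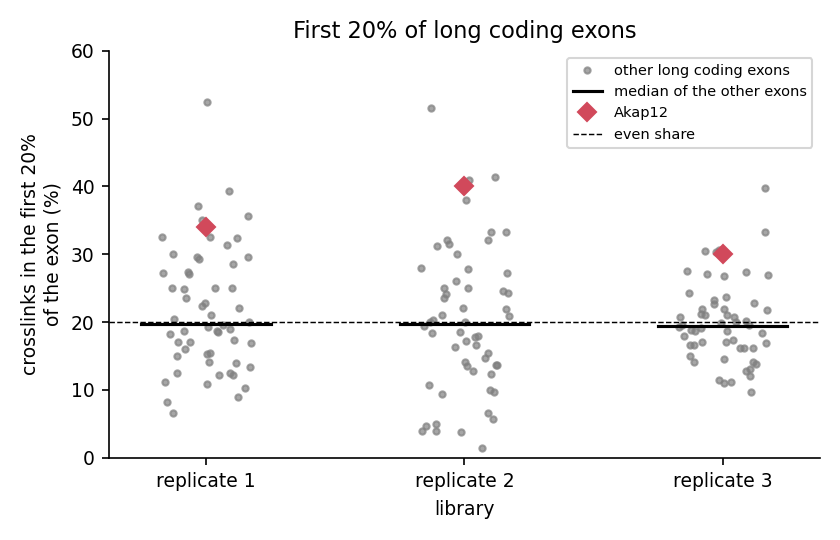
Share of crosslinks (%) in the first 20% of each of 57 long coding exons in each library, with Akap12 as a diamond, the other 56 exons as grey points, their median as a bar and the even share dashed. Akap12 sits at 34.1%, 40.0% and 30.1%, above the medians near 20%, and a few exons lie above it in each library.

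The libraries gave a similar profile over the Akap12 exon. Across its 48 bins, Spearman's rho was 0.81 between replicates 1 and 3, 0.55 between 1 and 2 and 0.57 between 2 and 3, and Pearson's r was 0.85, 0.65 and 0.59. In the other 56 long coding exons the median rho of the same pairs was 0.18, 0.12 and 0.09, and the highest was 0.56, 0.60 and 0.53. Bins share libraries, base composition and mapping, and the other exons have fewer crosslinks per bin, so these values describe the exon at its depth. Fisher's exact test of the share of each bin in replicate 2 against replicates 1 and 3 together called 0 of the 48 bins after adjustment, against 0.0351% of all bins. By the same test 4 bins had an unadjusted p under 0.05, a count for which no share over all bins was taken. The largest gap was at nt 401 to 500, with 43, 19 and 61 crosslinks, 6.44% of replicate 2 against 2.27% of the others (adjusted p 0.172, Fisher's exact test).

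The next question was whether crosslinks lay just upstream of the GAA core. GAA is so common in this exon that 60.7% of its nt have a GAA starting 1 to 20 nt downstream. Of the crosslinks, 64.4%, 75.3% and 59.5% did, which gives ratios of 1.06, 1.24 and 0.98 in replicates 1, 2 and 3. The adjusted p reached 0.841 by the exact binomial test, so the exon was not called, and none of the 57 long exons was called higher or lower (0% each, and 0 higher at an unadjusted p under 0.05). Replicate 3 lay just below 1.

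The longer motifs AGAA and GAAGA, which contain GAA and overlap each other, were called. An AGAA started within the 20 nt downstream of 31.8% of the nt and of 40.2%, 46.1% and 35.7% of the crosslinks, with ratios of 1.27, 1.45 and 1.12 (largest adjusted p 0.000315, exact binomial test). For GAAGA the figures were 16.5% of the nt and 23.5%, 34.9% and 18.6% of the crosslinks, with ratios of 1.42, 2.11 and 1.12 (largest adjusted p 0.0387, exact binomial test). For either motif Akap12 was the 1 exon of 57 called, which is 1.75%. Its ratios were not high beside the other 56 exons, whose medians were 1.18, 1.47 and 1.10 for AGAA and 1.31, 2.42 and 1.29 for GAAGA. With each nucleotide counted once, the calls were lost, at mean ratios of 1.22 and 1.43 with adjusted p up to 0.199 and 0.774 by the exact binomial test, an alternative chosen after the data were seen. Upstream of the crosslinks, AGAA began at 2.07%, 2.31% and 2.04% on average per distance, over 20 distances. Downstream the values were 2.29%, 2.75% and 2.01%, against 1.78% of all positions. For GAAGA they were 1.12%, 1.22% and 1.16% upstream and 1.23%, 1.86% and 0.969% downstream, against 0.877%. The calls thus do not place crosslinks on 1 side of the motifs in all 3 libraries. The test also does not adjust for denser parts of the exon.

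The distance from single crosslinks to the motifs was read as a description. In replicate 2, GAAGA began most often 6 nt downstream of a crosslink, for 13 of its 295 crosslinks, or 4.41%, the highest of 61 distances, against 0.877% of all positions in the exon. In replicates 1 and 3 the values at 6 nt were 1.46% and 1.23%, and the peak lay 3 nt upstream, at 2.32% and 2.86%. GAA began at the crosslinked nucleotide itself for 8.17%, 5.76% and 10.8% of crosslinks, against 4.20% of positions. The crosslinked base was G in 45.4%, 38.6% and 45.9% and U (T in the sequences shown) in 24.5%, 19.3% and 24.9% of crosslinks, where the exon has 30.1% and 15.5%. It was A in 19.7%, 27.1% and 18.4%, against 30.9%. Reading frame repeats every 3 nt in this exon, so neighbouring distances share codons, and these profiles were not tested.

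**Figure D4:**
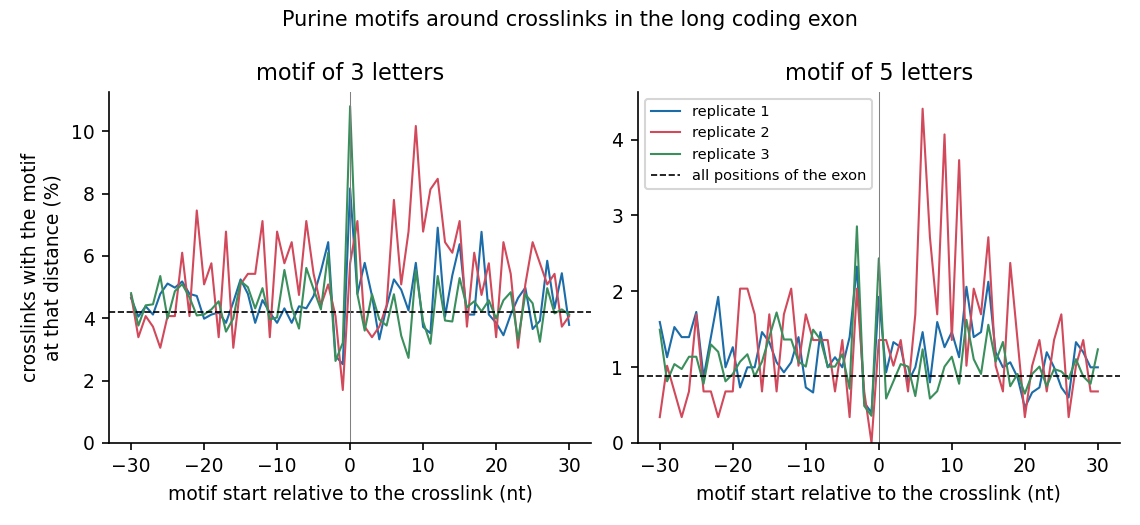
Share of crosslinks (%) in the long exon that have GAA (left) or GAAGA (right) starting at each distance (nt, downstream positive), with 1 line per library and the share over all positions of the exon dashed. Replicate 2 rises to 4.41% for GAAGA 6 nt downstream, and GAA at distance 0 reaches 8.17% and 10.8% in replicates 1 and 3.

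The long exon encodes a protein stretch rich in glutamate, the codons of which are GAA and GAG. Of 1595 whole codons, 263, or 16.5%, were GAA or GAG, and these held 18.8%, 15.3% and 20.9% of the crosslinks in replicates 1, 2 and 3. Lysine codons, AAA and AAG, were 7.77% of codons and held 8.33%, 7.46% and 6.86%. Across the 48 bins, Spearman's rho between the share of crosslinks and the number of GAA was 0.39, 0.48 and 0.29, and with the purine content 0.36, 0.41 and 0.30. The exon ranked 7th in purine content and 8th in GAA per kb among the 57, with 61.1% and 42.0 against medians of 54.4% and 31.2.

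The low level in replicate 2 depended on what the count was scaled to. Against the mean of replicates 1 and 3, the CPM in replicate 2 was 10.4-fold lower with crosslinks assigned to genes, a log2 difference of -3.38. Scaled to all crosslinks it was 12.2-fold lower. Scaled to coding crosslinks alone, Akap12 made up 2.02%, 0.434% and 2.05% of them, and replicate 2 was 4.68-fold lower, a log2 difference of -2.23. Replicate 2 was the deepest library, with 619571 crosslinks against 348033 and 488719, but 15.4% of its crosslinks were in coding exons and UTRs, against 30.4% and 41.9%.

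Genes with mostly exonic crosslinks, as judged over the 3 libraries together, had a lower level in replicate 2 in general. Replicate 2 had the lowest exonic share, so this filter favours genes with few crosslinks in that library. The values of the 200 genes below are therefore partly set by the filter. Among 200 coding genes with at least 100 crosslinks, 90% or more of them in exons, the median log2 difference was -2.28, and 45 of them, or 22.5%, lay below Akap12. Among all 2258 coding genes with at least 100 crosslinks, the median was -0.23, and 48 lay below Akap12.

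**Figure D5:**
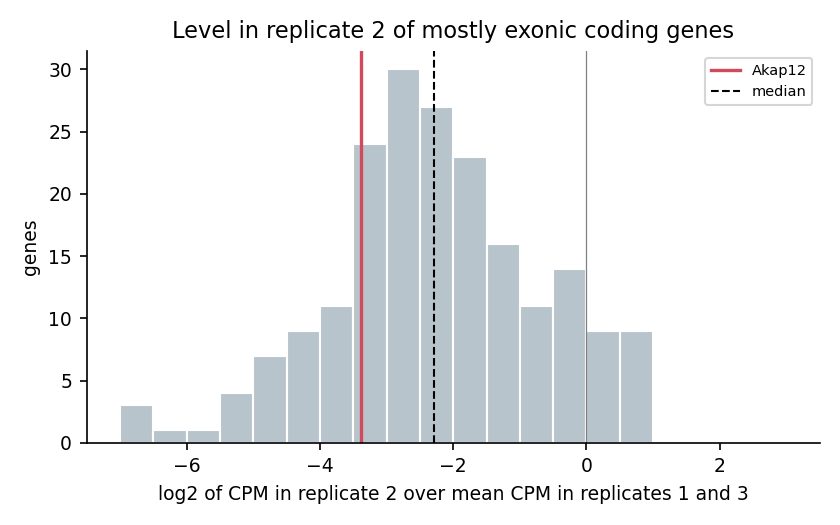
Number of genes by the log2 ratio of CPM in replicate 2 over the mean CPM in replicates 1 and 3, for 200 coding genes with at least 90% of crosslinks in exons, 1 of which had no crosslink in replicate 2 and is not drawn. Akap12 (red line, -3.38) lies below the median (dashed, -2.28) and within the range of the other genes. The 90% was taken over the 3 libraries together, which favours genes low in replicate 2.

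The pattern over the libraries closest to that of Akap12 was sought among 107 coding genes with at least 200 crosslinks and 90% of them in exons. The 90% was again taken over the 3 libraries together, which favours genes low in replicate 2. Likeness was the Euclidean distance of log2 CPM centred on the mean of the 3 libraries, so that it rests on 3 values per gene. The closest was Larp7, a gene for an RNA-binding protein of the 7SK complex, with 428, 50.1 and 646 CPM and a distance of 0.0501. It was followed by Tnp1 (0.0773), Ccdc181 (0.0968), Tnp2 (0.110) and Calr (0.156), while the median distance was 1.01. Tnp1 and Tnp2 encode transition proteins, which replace histones in spermatids, and held 529, 56.6 and 726 and 791, 82.7 and 1055 CPM.

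Markers of the testis cell types were read beside this. Exonic crosslinks of 8 spermatid markers summed to 2647, 462 and 3150 CPM in replicates 1, 2 and 3, a log2 difference of -2.65 in replicate 2, and all 8 were detected. The 7 spermatocyte markers summed to 704, 298 and 856 CPM (-1.39) and the 6 spermatogonial markers to 43.8, 41.4 and 37.3 (0.03). Without Kit, with 8, 4 and 7 crosslinks, the other spermatogonial markers summed to 16.8, 32.7 and 21.0 CPM (0.79). Dmrt1, Uchl1, Stra8 and Zbtb16 were highest in replicate 2, all at low counts. Without Ldhc, a lactate dehydrogenase gene with 83, 10 and 91 crosslinks, the other spermatocyte markers summed to 424, 277 and 644 CPM (-0.95), and Hormad1 was highest in replicate 2. For the 7 Sertoli markers, 6 with any exonic crosslink, the sums were 229, 78.4 and 184 CPM (-1.40), and for the 6 Leydig markers 128, 61.0 and 114 (-0.99). Most of the difference lay in 1 gene of each list. Without Clu, with 52, 14 and 56 crosslinks, the Sertoli markers summed to 53.9, 47.9 and 53.7 CPM (-0.17), and Sox9 and Wt1 were highest in replicate 2. Without Insl3, with 18, 0 and 21 crosslinks, the Leydig markers summed to 67.4, 61.0 and 65.3 CPM (-0.12), and Star was highest in replicate 2. The spermatid sum stayed low without Tnp2, at 1862, 385 and 2102 CPM (-2.36), and no spermatid marker was highest in replicate 2. The members left out were chosen after their values were seen. Myoid, endothelial and macrophage markers were at most 32.7 CPM in any library, and Amh, Cnn1, Cdh5 and Adgre1 were at 0 in all 3. The part of cell composition and of the exonic share in the low Akap12 level in replicate 2 was not tested.

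Akap12 was set beside the other genes of its family. Of 15 A-kinase anchoring genes listed, 14 were matched and 12 had at least 20 crosslinks. After Akap12 came Akap9, which encodes a scaffold of the centrosome and Golgi, with 159, 182 and 210 crosslinks. Akap4 and Akap3, which encode scaffolds of the sperm tail fibrous sheath, had 115, 88 and 140 and 104, 66 and 165 crosslinks. Akap1, the mitochondrial family member, had 59, 27 and 72. Over the other 11 genes the log2 difference of replicate 2 had a median of -0.37 and ranged from -1.64 in Akap1 to 1.31 in Akap8l, against -3.38 in Akap12. Their exonic share was lower, between 16.0% in Akap6 and 88.6% in Akap1. Of the 200 genes of like exonic share 45 lay lower than Akap12, and of all 2258 coding genes with at least 100 crosslinks 48 did (2.13%). The filter on exonic share favours genes low in replicate 2. The 45 of 200 therefore cannot show whether the low level is particular to Akap12.

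Of the 162 tested exons of the other A-kinase anchoring genes, 0 were called in either direction. With 0.164% and 0.305% of all exons called, under 1 such call would be expected, and these genes held at most 551 crosslinks over the libraries (Akap9) against 5967 in Akap12, so this count does not set Akap12 apart. Among the subunits of protein kinase A, the enzyme that these scaffolds bind, 4 of 6 had at least 20 crosslinks. Prkar2a, a type II regulatory subunit gene, had 66, 36 and 123, and Prkar1a, a type I regulatory subunit gene, had 22, 11 and 35. Prkacb, a catalytic subunit gene, had 15, 11 and 14, and Prkar1b, the other type I regulatory subunit gene, had 5, 11 and 8. None of their 22 tested exons was called.

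At the edges of the long exon, crosslinks continued a short way into the intron before it. The last 5 nt of that intron held 4, 0 and 7 crosslinks, of 5, 1 and 11 in the whole 5234 nt between it and the first exon of Akap12-202. The 538 nt intron between the long and the last exon held 0, 0 and 1.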

How the data were processed

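Tra2β iCLIP was carried out on 3 adult wild type mouse testis samples. The authors deposited, for each library, counts of unique cDNAs per crosslinked nucleotide and strand, not normalised and not pooled. The submitters' processing notes name Trim Galore 0.6.7, Bowtie 1.3.1, STAR 2.7.9a, UMI-tools 1.1.2 and build mm39. Their settings are not given in the sources used here.

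Crosslinks were assigned by strand to GENCODE vM39 features, coding sequence first, then 3′ UTR, 5′ UTR, non-coding exon and intron. CPM used crosslinks assigned to genes, 296946, 459310 and 428612 in replicates 1, 2 and 3. Exons (in genes with 20 or more exonic crosslinks), 100 nt bins, and nt 1 to 20 upstream of a motif were compared by length with a two-sided exact binomial test in each library. Shares of bins were compared by Fisher's exact test. P-values were adjusted by Benjamini-Hochberg over all exons, bins or long exons of a library, and a call needed adjusted p under 0.05 and 1 direction across all 3 libraries. Log2 ratios had 0.5 crosslinks added. Named genes were Akap12, the next 2 by mean CPM, the closest 5 in pattern, and A-kinase anchoring and protein kinase A genes with at least 20 crosslinks. Members and lists were chosen with earlier results of these data known. Intervals and p-values cover counting error only. Python 3.11.15 and scipy 1.17.1 were used. Alternatives were single counting of nucleotides, other bin sizes, references, motifs and scalings, and leaving out each library. Some items are not reported here.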

Additional observations from a re-analysis of the deposited data

How the results depend on the processing

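The mean log2 ratio of the long exon over the rest of the transcript kept its direction under every alternative run. It was not called with coding sequence only (3.54, where the rest is the short coding part of the first exon) or against the last exon alone (0.80, chosen after the data were seen). Leaving out each library in turn gave 0.33 to 1.40. The call was kept in those 3 settings, with each nucleotide once, merged exons and 1 crosslink added. Bins of the long exon called higher numbered 0, and 2 with bins of 200 nt. Leaving out each library gave 0 to 5 called higher and 0 to 1 called lower, the highest without replicate 2 in both. The ratio of crosslinks upstream of GAA, 1.09, was not called, and ranged from 1.02 to 1.15 when libraries were left out. With AGAA (1.28) or GAAGA (1.55) in place of GAA the exon was called, but not with each nucleotide once. The log2 difference of the level in replicate 2 was -2.23 scaled to coding crosslinks and -2.78 with each nucleotide once. No result turned its direction. The causes were not tested. No paired analysis was possible because there was 1 group. At 6.16 expected crosslinks per bin, replicate 2 limits what the bins can show.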
